A study of Mus musculus with 282 samples.

Results

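BUB/BnJ and C57BL/6J are fully inbred strains of the Hybrid Mouse Diversity Panel, a collection of classical and recombinant inbred mouse strains in which gene expression is related to genetic variation and to metabolic traits. The hypothalamus of 3 male BUB/BnJ mice was compared with that of 3 male C57BL/6J mice, which were the mice carrying these strain labels among 282 mice of the panel, 281 of which had an unambiguous label of 1 of 99 strains. The mice of both strains, like all others of the panel, were fed a high fat diet, so that the comparison holds no group on another diet. No other treatment is named, and the age of the mice is not given in the labels. Expression was measured by unstranded RNA sequencing of the whole hypothalamus and given as FPKM, fragments scaled to the length of the transcript and to the number of mapped fragments, for 14079 gene loci and 51024 transcripts. Each strain is a single genotype, so the comparison does not tell which allele goes with which difference. The genome to which all reads were aligned is that of C57BL/6J, and the part of this in any difference was not tested. In whole tissue, fewer cells of a type and less RNA per cell cannot be told apart.

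The hypothalamus controls feeding, body temperature, growth and reproduction through neurons that release peptides. Such secretory cells fold proteins in the endoplasmic reticulum with chaperones such as BiP (Hspa5) and Grp94 (Hsp90b1), the calcium-binding lectin chaperone calreticulin (Calr) and protein disulphide isomerases (the Pdia genes). When unfolded protein accumulates, the unfolded protein response raises these genes through the transcription factors ATF6, XBP1 and ATF4. ATF6 and XBP1 are known to act through the endoplasmic reticulum stress element (ERSE), which is CCAAT and CCACG with a spacer of fixed length, and ERSE-II, which is ATTGG and CCACG with a single base between them. BUB/BnJ mice are known for early hearing loss and retinal degeneration. C57BL/6J mice are the reference strain and carry a known defect in Nnt, a mitochondrial enzyme that makes NADPH.

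The endoplasmic reticulum stress list held the most calls of the gene lists, and the promoters of its members with an ERSE or ERSE-II match before the start site are shown for that reason. The sequences are those of RefSeq (GRCm38.p6), read 5′ to 3′ on the strand of the gene, with the matches in capitals. They come from chr2:34772013-34772055 (+ strand) for Hspa5, chr10:86705521-86705668 (- strand) for Hsp90b1, chr8:84847063-84847105 (- strand) for Calr and chr15:88819508-88819550 (+ strand) for Creld2, which were higher in BUB/BnJ. The windows of Pdia6, Canx and Herpud1, which were not called, lie at chr12:17266479-17266521 (+ strand), chr11:50325788-50325830 (- strand) and chr8:94386365-94386399 (+ strand).
Hspa5: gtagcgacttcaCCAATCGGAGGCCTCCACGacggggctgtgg
Hsp90b1: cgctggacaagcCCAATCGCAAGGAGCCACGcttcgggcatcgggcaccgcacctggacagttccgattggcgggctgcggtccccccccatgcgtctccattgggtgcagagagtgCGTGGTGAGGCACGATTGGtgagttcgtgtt
Calr: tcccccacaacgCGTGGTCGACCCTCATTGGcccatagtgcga
Creld2: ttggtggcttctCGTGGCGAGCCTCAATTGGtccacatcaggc
Pdia6: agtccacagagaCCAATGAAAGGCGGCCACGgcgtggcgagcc
Canx: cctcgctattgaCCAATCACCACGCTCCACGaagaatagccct
Herpud1: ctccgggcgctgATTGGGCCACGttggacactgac

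An ERSE was found, on either strand, in 0.119% of 32851 promoters of 300 bases, and an ERSE-II in 0.0365%. No window shown holds matches to both motifs. Of the 16 genes of the list, 14 had a promoter in the table and 8 of these held a match, with 2 ERSE matches in Hsp90b1. Dnajb11, which was also higher in BUB/BnJ, held its ERSE-II match after the start site and is not printed. Sdf2l1, Xbp1, Ddit3, Pdia3 and Pdia4 rose without a match in their windows, which says only that these letters are not in the 300 bases searched.

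Many of the largest differences of the comparison concerned genes with near-identical copies elsewhere in the genome, among them processed copies of ribosomal protein genes. How alike such sequences are is shown by 60 bases of the coding sequences of 3 genes and of the stretches of the copies aligned to them, from the GENCODE M21 transcripts, with the bases that differ in capitals. Rps26 lies at chr10:128624530-128626506 and its copy Rps26-ps1 at chr8:107439176-107439585, Rpsa at chr9:120127766-120133713 and Rpsa-ps10 at chr3:150072590-150073620, and Rps18 at chr17:33951999-33955717 and Gm10260 at chr13:97760130-97760588, all in mm10. Over the coding sequence, Rps26-ps1 differs from Rps26 at 2 of 348 bases, Rpsa-ps10 from Rpsa at 6 of 885 aligned bases, and Gm10260 from Rps18 at 4 of 459 bases.
Rps26: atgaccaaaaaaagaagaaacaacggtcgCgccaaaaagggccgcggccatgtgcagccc
Rps26-ps1: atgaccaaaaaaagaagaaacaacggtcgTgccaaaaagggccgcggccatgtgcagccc
Rpsa: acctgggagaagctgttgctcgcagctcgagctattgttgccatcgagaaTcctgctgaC
Rpsa-ps10: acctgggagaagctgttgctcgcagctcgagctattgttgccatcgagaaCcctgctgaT
Rps18: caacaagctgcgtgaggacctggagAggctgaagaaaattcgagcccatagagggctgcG
Gm10260: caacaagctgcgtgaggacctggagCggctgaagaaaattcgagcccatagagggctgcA

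The 6 libraries were alike in the number of loci above 1 FPKM but not in the number at 0 FPKM. Between 12975 and 13082 gene loci exceeded 1 FPKM in each library. Loci at 0 FPKM numbered 65, 70 and 45 in the BUB/BnJ mice and 134, 197 and 131 in the C57BL/6J mice. The cause of this difference was not tested. The correlation of log2(FPKM + 1) across genes was 0.984 to 0.988 within the strains and 0.966 to 0.973 between them. FPKM values hold no read counts, so the counting error behind a level is unknown. Hypothalamic peptides were present in all 6 mice, with Agrp between 113 and 122 FPKM and Pmch between 366 and 430. Tissue next to the hypothalamus was also seen. Gh, growth hormone of the anterior pituitary, was measured at 13.1, 30.4 and 122 FPKM in the BUB/BnJ mice and at 0.729, 0.395 and 0 FPKM in the C57BL/6J mice, and the 6 pituitary markers found summed to between 18.1 and 140 FPKM in BUB/BnJ and between 3.20 and 5.59 FPKM in C57BL/6J. Ttr, the transthyretin gene of the choroid plexus, stood at 1376 FPKM in C57BL/6J mouse 3 and between 8.73 and 77.3 FPKM in the other 5 mice. No member of these lists passed the test, and the part of adjoining tissue in other differences was not tested. Of the gene and locus calls named below, those of Ddit3, Creld2, Dnajb11, Pdia4, Hsp90b1, Alad, Fbxo6, Glis3 and XLOC_007074 were lost without BUB/BnJ mouse 3 and also without C57BL/6J mouse 3. Those of Pdia3, Hspa1a, Hspe1, Nsdhl, Rps28, Gm15564 and Pkd1 were lost without BUB/BnJ mouse 3, and those of Hsph1, H2-Q4 and the locus of Tapbp without C57BL/6J mouse 3.

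Of the 14079 gene loci, 891 differed between the strains at an adjusted p under 0.05 (6.33%), of which 426 were higher (3.03%) and 465 lower (3.30%) in BUB/BnJ. The test was limma's moderated contrast on log2(FPKM + 1) with Benjamini-Hochberg adjustment over all loci and 1 spread shared by the mice of all 99 strains. The 3 BUB/BnJ mice did not overlap the 3 C57BL/6J mice in 873 of the called loci, which are 6.20% of all loci, and regardless of the test in 24.6% of all loci. The median absolute difference was 0.58 on the log2 scale among called loci and 0.12 among all loci, and 215 called loci (1.53% of all) differed by at least 1. Exactly 1 gene name was carried by 646 of the called loci. Processed and other pseudogenes were called more often than coding genes, at 24.7% of 73 against 5.44% of 10420, which was not tested as a difference. The median over all genes was -0.02, which is small beside the differences of the called loci.

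**Figure D1:**
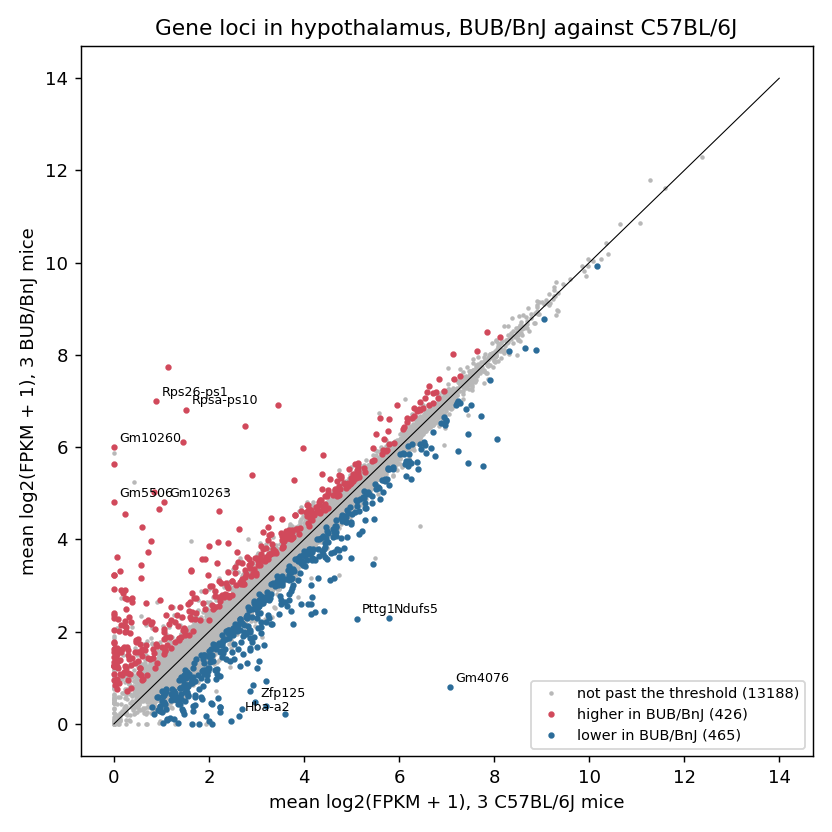
Mean log2(FPKM + 1) of each of 14079 gene loci in the 3 C57BL/6J mice (x axis) and the 3 BUB/BnJ mice (y axis), with the line of equal levels and colours for the 426 loci higher and the 465 lower in BUB/BnJ at an adjusted p under 0.05. Named points are the 5 highest and the 5 lowest of the genes chosen by size of difference, and most loci lie close to the line.

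Of the 16 genes of the endoplasmic reticulum stress list, 11 were higher in BUB/BnJ, 5 did not pass the test and none fell, against 3.03% of all loci that rose, and the median difference of the list was 0.43 on the log2 scale against -0.02 over all loci. The chaperones, the folding enzymes and the transcription factors Xbp1 and Ddit3 all held members that rose. Without BUB/BnJ mouse 3 the number that rose was 5, without C57BL/6J mouse 3 it was 6, and it lay between 8 and 10 without 1 of the other mice.

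Hspa5, the BiP chaperone that binds unfolded protein and holds the stress sensors inactive, was measured at 178, 175 and 179 FPKM in the BUB/BnJ mice and at 116, 114 and 111 FPKM in the C57BL/6J mice. Every BUB/BnJ mouse was thus well above every C57BL/6J mouse, with a log2 difference of 0.64 ± 0.10 (SE, adjusted p = 2.55e-07, limma). Calr stood at 252, 263 and 295 FPKM against 202, 190 and 202 FPKM, a difference of 0.44 ± 0.10 (adjusted p = 0.00131, limma). Hsp90b1, the Grp94 chaperone, differed less, with 186, 185 and 190 FPKM in BUB/BnJ and 154, 156 and 155 FPKM in C57BL/6J, and its call (0.27 ± 0.09, adjusted p = 0.0412, limma) was lost in 8 of 15 alternative analyses. Its locus also carries the name Gm15344.

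Among the factors that work with BiP, Sdf2l1 had the largest difference of the list. It was measured at 16.3, 16.4 and 16.6 FPKM in BUB/BnJ, the highest strain mean of the 99, and at 9.45, 9.37 and 7.88 FPKM in C57BL/6J (0.82 ± 0.21, adjusted p = 0.00411, limma). Manf, a secreted factor kept in the endoplasmic reticulum that responds to stress, stood at 79.5, 81.3 and 82.4 FPKM against 55.5, 55.6 and 49.6 FPKM, in a locus that joins it with Rbm15b. The groups were apart in both genes. Creld2 rose by 0.62 and Dnajb11, a co-chaperone of BiP, by 0.43 on the log2 scale, and the calls of Creld2 and Dnajb11 were lost in 4 and 2 of the alternative analyses.

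Of the 3 disulphide isomerases on the list, which form and shuffle the cystine bonds of secreted proteins, 2 rose. Pdia4 stood at 25.4, 25.2 and 26.6 FPKM against 18.4, 20 and 18.6 FPKM (0.42 ± 0.12, adjusted p = 0.0151, limma). Pdia3 rose by 0.32 (adjusted p = 0.0255), in a locus that overlaps Catsper2. Pdia6 had a difference of 0.31 and did not pass the test (adjusted p = 0.0858, limma), although its mice did not overlap.

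Of the transcription factors, Xbp1 stood at 46.7, 45.7 and 53.2 FPKM in BUB/BnJ and at 35.8, 29.8 and 32.1 FPKM in C57BL/6J (0.56 ± 0.10, adjusted p = 2.80e-06, limma). BUB/BnJ had the highest strain mean of Xbp1 among the 99 strains. Its 2129-base known transcript carried most of the level, at 38.4, 40.0 and 47.1 against 30.8, 24.5 and 27.0 FPKM. Ddit3 (CHOP), which is induced late in the response, stood at 23.2, 26.1 and 28.8 FPKM against 16.6, 15.6 and 14.7 FPKM (0.70 ± 0.19, adjusted p = 0.00954, limma), in a locus that overlaps Mars. Its call was lost without mouse 3 of either strain. Atf4, the factor upstream of Ddit3, had a difference of -0.17 with overlapping mice (adjusted p = 0.426, limma), and the lectin chaperone Canx, Hyou1 and Herpud1 had differences of 0.09, 0.11 and 0.05, none of which passed.

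**Figure D2:**
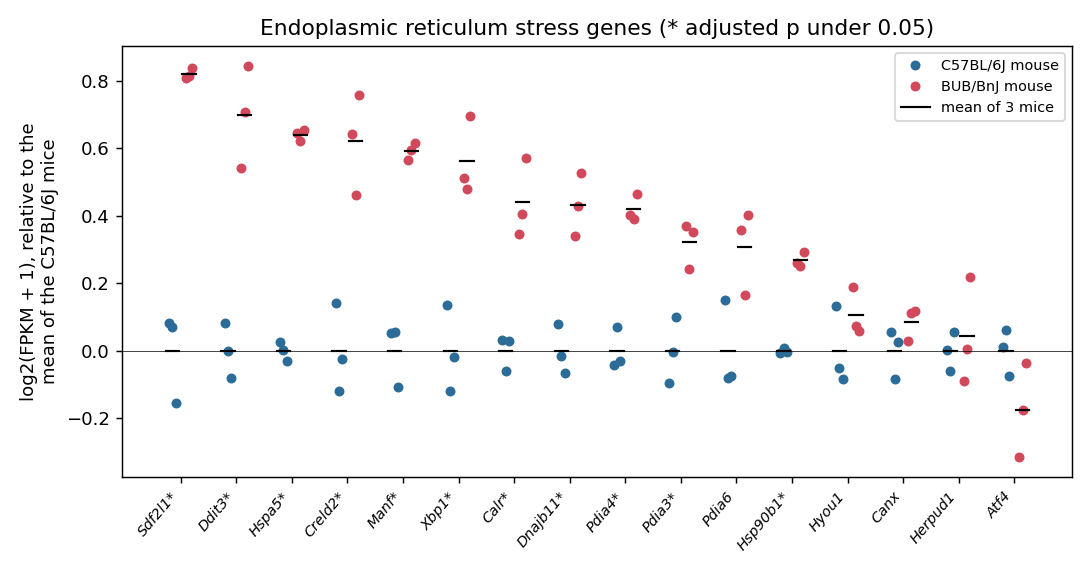
Level of each of the 16 genes of the endoplasmic reticulum stress list in each mouse, as log2(FPKM + 1) relative to the mean of the 3 C57BL/6J mice, with black lines for the mean of 3 mice and an asterisk for an adjusted p under 0.05. The 11 genes with an asterisk have all 3 BUB/BnJ mice above all 3 C57BL/6J mice, and Atf4 is the only gene with a BUB/BnJ mean below that of C57BL/6J.

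Both strains sat away from the middle of the panel in these genes. With the levels of the 16 genes averaged on the log2 scale, BUB/BnJ ranked 4 and C57BL/6J 83 of the 99 strains, with means of 5.84 and 5.45 against a median strain of 5.53 and a range of 5.35 to 5.87. The strain ranked 1, BXD-12/TyJ, holds a library that stands apart from the rest of the series. For Hspa5, 5 of the 23 other classical inbred strains and 15 of the 74 recombinant strains lay on the BUB/BnJ side of the midpoint between both strains, and for Xbp1 these numbers were 4 and 12. The pituitary marker sums of the BUB/BnJ mice were 18.1, 45.1 and 140 FPKM. In the same order of mice, Calr (252, 263 and 295 FPKM), Ddit3 (23.2, 26.1 and 28.8 FPKM), Dnajb11 (23.6, 25.2 and 27 FPKM) and Manf (79.5, 81.3 and 82.4 FPKM) were lowest where the sum was lowest and highest where it was highest, as was Sdf2l1. Hspa5 stood at 178, 175 and 179 FPKM, Hsp90b1 at 186, 185 and 190 FPKM and Creld2 at 13.4, 11.7 and 14.6 FPKM. These genes, Xbp1 and Pdia4 were lowest in BUB/BnJ mouse 2 and highest in BUB/BnJ mouse 3. The part of adjoining pituitary tissue in these differences was not tested.

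The genes whose promoters hold an ERSE or ERSE-II were also counted without regard to the list. Of 25 such measured genes, 6 rose and none fell, against 217 that rose and 292 that fell among 9410 measured genes with a promoter in the table. The 17 of them outside the list held 1 that rose, Derl3, which takes part in the removal of misfolded proteins. It stood at 2.52, 1.68 and 2.02 FPKM in BUB/BnJ and at 0.512, 0.356 and 0.937 FPKM in C57BL/6J (0.95 ± 0.19, adjusted p = 7.42e-05, limma). The median of these 17 genes was 0.05 on the log2 scale and that of all measured genes with a promoter was -0.02.

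Of the 11 heat shock chaperones of the cytosol and mitochondria, 2 were higher and 1 lower, against 3.03% and 3.30% of all loci. The median difference of this list was 0.19, and 10 of its 11 members had a positive difference, 6 members being at an unadjusted p under 0.05. Hsph1 stood at 111, 118 and 113 FPKM in BUB/BnJ and at 93.2, 94.9 and 81.6 FPKM in C57BL/6J (0.34 ± 0.09, adjusted p = 0.0065, limma). Hspa1a rose by 0.61 at low levels, between 1.41 and 1.86 FPKM against 0.691 to 0.894 FPKM. Hspe1, the mitochondrial co-chaperone Hsp10, fell by 0.60 on the log2 scale and overlaps Hspd1, whose difference was 0.06 (adjusted p = 0.808, limma). Without BUB/BnJ mouse 3, 1 member of this list was called.

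The genes named by size of difference were chosen as the 15 highest and the 15 lowest called loci with 1 name, no overlap of the mice and a mean of at least 1 FPKM in either strain. Near-identical copies, of at least 95% identity over 200 bases, are annotated for 22 of these 30 genes. Copies were sought for these genes only, so the share of all measured genes with a copy is not known. Reads from such copies cannot be told apart where the sequences are the same, so that the levels of these genes are uncertain. Annotated copies numbered 11 for Rpsa-ps10, 7 for Gm10263, 5 for Gm10260 and 47 for Rpl29, of which 1 each was measured under a single name. Each sum given below covers only the pair named, and reads at the other copies are not in it. Of 26 pairs in which both were measured, 11 were called in opposite directions. A member of each pair was chosen for the size of its difference, so this count is a description.

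Rps26-ps1, a processed copy of the ribosomal protein gene Rps26, was measured at 123, 114 and 145 FPKM in BUB/BnJ and at 0.679, 1.11 and 0.798 FPKM in C57BL/6J (6.11 ± 0.41, adjusted p = 1.14e-30, limma). Rps26 itself stood at 50.4, 37.7 and 56.0 FPKM against 268, 192 and 195 FPKM (-2.16 ± 0.19, adjusted p = 1.10e-20, limma). Gene and copy were thus far apart between the strains in opposite directions. Summed, they came to 173, 152 and 201 FPKM in BUB/BnJ and 269, 193 and 195 FPKM in C57BL/6J, and these sums overlapped.

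Rps18 and its copy Gm10260 had the same form. Gm10260 stood at 61.7, 52.2 and 77.1 FPKM in BUB/BnJ and was listed at 0 in all 3 C57BL/6J mice, and Rps18 at 58.3, 47.9 and 60.6 FPKM against 109, 106 and 108 FPKM (-0.95 ± 0.19, adjusted p = 9.95e-05, limma). Their sums, 119 ± 18.8 and 107 ± 1.64 FPKM (SD, n = 3), overlapped. The sums of Rps28 and its copy Gm10263 also overlapped, at 72.4 ± 3.69 and 86.9 ± 26.5 FPKM (SD, n = 3). The call of Rps28 itself was lost in 4 alternative analyses, among them those without BUB/BnJ mouse 2 or 3 or C57BL/6J mouse 1. In 8 other pairs called in opposite directions the sums did not overlap. Among all single loci, the mice did not overlap in 24.6%. These pairs were selected by their calls, so the count is a description. Rpsa stood at 54.7, 43.0 and 54.3 against 91.2, 75.7 and 80.9 FPKM and Rpsa-ps10 at 109, 101 and 125 against 2.40, 1.02 and 2.38 FPKM, with a sum that was 1.92 times as high in BUB/BnJ. The call of Rpsa was lost without BUB/BnJ mouse 2 and without C57BL/6J mouse 1. For the splicing factor gene Rnps1 and its copy Gm9825, the sum in BUB/BnJ was 0.752 times that in C57BL/6J.

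Eno1, which encodes the glycolytic enzyme enolase 1, stood at 95.4, 96.2 and 114 FPKM in BUB/BnJ and at 209, 217 and 210 FPKM in C57BL/6J. Gm5506, a copy named Eno1b in RefSeq, stood at 26.8, 25.7 and 28.4 FPKM in BUB/BnJ and was listed at 0 in C57BL/6J. Their sum remained lower in BUB/BnJ, at 129 ± 11.5 against 212 ± 4.27 FPKM (SD, n = 3). Copies did not always move against the gene. Rpl29 and its copy Gm10709 were both lower, Rpl29 at 11.5, 8.68 and 9.98 against 49.1, 41.0 and 38.1 FPKM, and the copies Rps3a2 and Rps3a3 were higher while Rps3a1 stood at 198, 175 and 219 against 201, 186 and 177 FPKM (adjusted p = 0.918, limma).

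**Figure D3:**
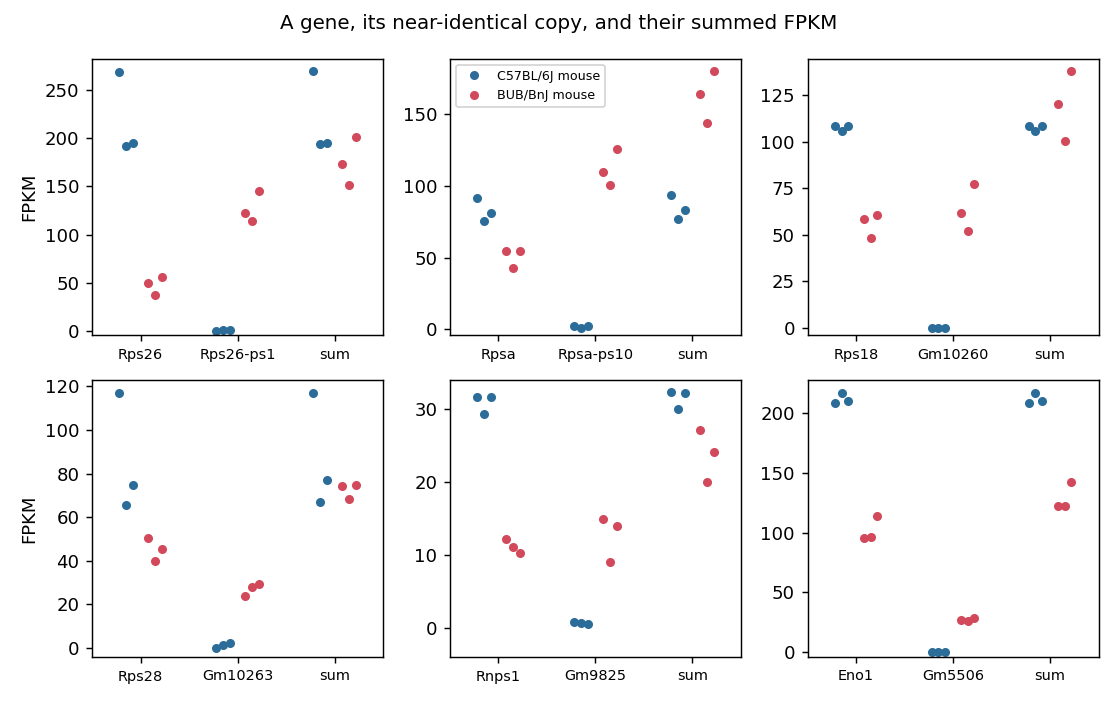
FPKM (linear y axis) of 6 genes, of a near-identical copy of each and of the sum of both, with 1 point per mouse. In each panel the gene is lower and the copy higher in all 3 BUB/BnJ mice, and the sums overlap between the strains for Rps26, Rps18 and Rps28 but not for Rpsa, Rnps1 and Eno1.

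Ndufs5, a subunit of respiratory complex I, had the second largest fall, at 2.87, 5.49 and 3.63 FPKM in BUB/BnJ and 63.4, 58.1 and 43.1 FPKM in C57BL/6J (-3.50 ± 0.21, adjusted p = 3.09e-36, limma). Its annotated copy was not measured under a single name. None of the 74 recombinant strains and 8 of the 23 other classical strains lay on the BUB/BnJ side of the midpoint. Rpl26, with 8 annotated copies, fell from between 249 and 298 FPKM in C57BL/6J to between 68.3 and 72.8 FPKM in BUB/BnJ. The largest fall was that of the pseudogene Gm4076, at 4.19, 0.00332 and 0.0108 FPKM against 141, 131 and 130 FPKM. Hba-a2, an alpha globin gene, stood at 0 to 0.220 against 4.53 to 6.27 FPKM and shares 99.8% of 538 bases with Hba-a1, whose difference was 0.62 (adjusted p = 0.468, limma).

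Other genes named by size had no near-identical copy. Pttg1, the securin of sister chromatid separation, stood at 3.27, 3.67 and 4.74 FPKM in BUB/BnJ and at 35.3, 30.1 and 35.1 FPKM in C57BL/6J (-2.83 ± 0.31, adjusted p = 1.65e-14, limma). Pla2g4e, a cytosolic phospholipase that makes N-acyl phosphatidylethanolamines, stood at 15, 13.4 and 14.6 against 3.00, 3.75 and 4.10 FPKM (1.74 ± 0.14, adjusted p = 1.09e-24, limma). The groups of both genes were far apart. Of the 23 other classical strains, 22 lay on the BUB/BnJ side for Pttg1 and 18 for Pla2g4e, and the numbers for Myoc and Tnni1 were 17 and 19. Myoc, the secreted protein myocilin, fell from between 5.06 and 5.72 FPKM in C57BL/6J to between 0.128 and 0.402 FPKM in BUB/BnJ, and Tnni1, slow skeletal muscle troponin I, from between 5.41 and 8.19 to between 0.627 and 0.967 FPKM. Gm22009, a small nuclear RNA of the Cajal body class, rose by 2.00 on the log2 scale within the locus of Kpna4. The antisense genes Gm15564 and Gm20463, whose reads cannot be told from those of Kpna1 and Rnf5 in an unstranded library, lost their calls in 5 and 4 alternative analyses.

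The immune genes differed member by member. Of 17 loci of the MHC class I and II list, 2 rose and 3 fell, against 3.03% and 3.30% of all loci. H2-D1, a classical class I gene, stood at 66.0, 50.9 and 52.6 FPKM in BUB/BnJ and at 19.4, 20.6 and 20.4 FPKM in C57BL/6J (1.44 ± 0.23, adjusted p = 1.69e-07, limma). H2-T22, a class I gene of the T region, stood at 0.838, 0.999 and 0.905 against 8.31, 8.38 and 7.77 FPKM (-2.26 ± 0.20, adjusted p = 6.63e-21, limma). H2-T22 is 95.4% identical to H2-D1 over 284 bases and both are highly variable between strains, so these levels are uncertain. The other calls were H2-Q4 (0.87), H2-T24 (-1.09) and a locus that joins Tapbp with Daxx, Rgl2 and Zbtb22 (-0.45). Without BUB/BnJ mouse 1 or without C57BL/6J mouse 3, 3 members of this list were called. None of 12 loci of the interferon-stimulated list passed the test (median 0.16, 1 at an unadjusted p under 0.05).

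Of 12 microglia markers, 2 fell, both chains of complement C1q, against 3.30% of all loci that fell. The median difference of this list was -0.09, and 3 of the 12 markers had a positive difference. C1qb stood at 11.2, 9.94 and 11.9 FPKM in BUB/BnJ and at 21.6, 19.8 and 23.4 FPKM in C57BL/6J, and C1qc at 12, 11.1 and 14 against 25.9, 22.4 and 22.7 FPKM (-0.91 ± 0.22 and -0.89 ± 0.19, adjusted p = 0.00156 and 0.000377, limma). C1qa, the third chain, had a difference of -0.26 (adjusted p = 0.615) and the macrophage receptor Csf1r one of -0.05 (adjusted p = 0.914, limma). Fcrls, a microglial Fc receptor-like gene that is not on the list, fell from between 5.92 and 7.03 FPKM to between 0.473 and 0.963 FPKM (-2.15 ± 0.19, adjusted p = 1.90e-20, limma). For Fcrls, 21 of the 23 other classical strains lay on the BUB/BnJ side, and C57BL/6J ranked 3 and BUB/BnJ 90 of the 99 strains. Of 10 astrocyte markers, 2 fell, against the same 3.30%, with a median difference of -0.09 and 4 positive differences. Glul, glutamine synthetase, which detoxifies glutamate and ammonia, stood at 267, 269 and 293 against 494, 459 and 464 FPKM (-0.77 ± 0.09, adjusted p = 6.54e-13, limma), in a locus that overlaps A930039A15Rik. Sox9, a transcription factor of the astrocyte lineage, fell by 0.45, and Gfap and Aqp4 had differences of 0.12 and -0.13 that did not pass (adjusted p = 0.865 and 0.752).

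The peptides and receptors that control feeding showed no call. None of the 7 feeding peptides passed limma's test, with 1 at an unadjusted p under 0.05, and Agrp, the peptide of hunger neurons, stood at 119, 113 and 122 FPKM in BUB/BnJ and at 121, 114 and 117 FPKM in C57BL/6J. Hcrt, the orexin precursor, was lower in all 3 BUB/BnJ mice, at 123, 86.8 and 104 against 217, 155 and 155 FPKM, and did not pass the test (-0.74 ± 0.28, adjusted p = 0.108, limma). Pomc, the precursor of melanocortins, stood at 39.5, 15 and 51.7 against 31.5, 21.4 and 22 FPKM, where the pituitary is also a source. Neither did any of 7 pituitary-directed hormones (such as Avp, with a difference of -0.12), 12 other neuropeptides, 11 receptors of body weight control (Lepr, -0.08), 15 genes of leptin and insulin signalling, 9 hypothalamic transcription factors, 8 neuron markers or 10 oligodendrocyte markers pass, with 2 of the receptors, 1 oligodendrocyte marker and 0 in the other groups at an unadjusted p under 0.05. In all, 25 of the 36 gene lists, with 192 loci, held no call, which does not show that their levels are equal. The sensory genes Adgrv1 and Cdh23 had differences of -0.08 and -0.36 and did not pass.

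Of 6 genes with known differences between inbred strains, 4 were called, all higher in BUB/BnJ, against 3.03% of all loci that rose. Nnt stood at 10.9, 12 and 11.1 FPKM in BUB/BnJ and at 6.00, 5.95 and 6.05 FPKM in C57BL/6J (0.82 ± 0.08, adjusted p = 6.29e-17, limma), and 22 of the 23 other classical strains lay on the BUB/BnJ side. Gabra2, the alpha 2 subunit of the GABA-A receptor, shares its locus with Gabrg1 in the assembly. The locus stood at 58.2, 49.9 and 42.5 against 35.4, 35.0 and 32.5 FPKM (0.53 ± 0.13, adjusted p = 0.0027, limma), with all 23 other classical strains on the BUB/BnJ side, and its call was lost without BUB/BnJ mouse 1 and in the fit on the 6 mice alone. The transcripts separate the genes. A Gabra2 transcript of 4555 bases stood at 14.6, 13.0 and 15.3 against 5.14, 6.80 and 6.30 FPKM (1.11 ± 0.14, adjusted p = 3.99e-10, limma), a Gabra2 transcript of 2392 bases had a difference of 1.08 and did not pass (adjusted p = 0.105, limma), and a Gabrg1 transcript of 4771 bases at 11.5, 11.6 and 11.5 against 11.2, 11.9 and 11.6 FPKM (adjusted p = 1, limma). The neighbouring genes Alad, which makes a haem precursor, and Hdhd3 rose by 0.56 and 1.04, and both had 20 of 23 other classical strains on the BUB/BnJ side.

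The position of both strains among the 25 classical inbred strains was described for the called loci. Of the 891 called loci, BUB/BnJ had the highest or the lowest mean of the 25 in 200 (22.4%) and C57BL/6J in 219 (24.6%). These loci were called for a difference between the same strains, and the share over all loci was not counted, so both shares are a description. Genes in which BUB/BnJ stood farthest from the next strain included both glutathione transferases on the named list. Gstz1, which also breaks down tyrosine, stood at 8.6, 7.18 and 7.56 FPKM in BUB/BnJ, at 25.3, 20.9 and 20.7 FPKM in C57BL/6J and between 18.7 and 27.8 FPKM in the means of the other 23 strains, in a locus that overlaps Pomt2 and Tmed8. Gstt1 stood at 5.62, 4.09 and 5.60 FPKM in BUB/BnJ and between 10 and 16 FPKM in the other 23. In both, every BUB/BnJ mouse was below every other strain mean. Maats1 and Ccdc113, genes of motile cilia, differed in opposite directions, with Maats1 at 9.38, 8.58 and 9.08 FPKM against 1.29 to 2.86 in the other 23 strains and Ccdc113 at 0.260, 0.563 and 0.231 against 2.58 to 5.34 FPKM. Disp2, of the family that releases Hedgehog proteins, was higher at 284, 253 and 241 FPKM against 120 to 162 FPKM. Izumo4, D3Ertd751e and 9030407P20Rik were lower by 1.5, 1.34 and 1.26 on the log2 scale than in C57BL/6J.

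C57BL/6J stood out in a different set. Wdfy1, an endosomal adaptor, stood at 4.77, 5.43 and 5.53 FPKM in C57BL/6J, at 17.8, 18.4 and 17.1 FPKM in BUB/BnJ and between 16 and 19.5 FPKM in the other 23 strains (1.59 ± 0.09, adjusted p = 6.65e-39, limma). Among the 74 recombinant strains, 59 lay on the BUB/BnJ side and 15 on the C57BL/6J side, and for Nnt these numbers were 56 and 18. Ndn, the imprinted necdin gene, stood at 278, 218 and 197 FPKM in C57BL/6J against 400, 320 and 373 FPKM in BUB/BnJ. Beside these, Wdfy1 and Nnt, the genes of this kind were higher in C57BL/6J. Zbed3 stood at 15, 19.9 and 15.8 against 4.16, 3.75 and 4.73 FPKM, and Lpcat3, Glis3 and the alarmin Il33 were higher by 0.77, 0.76 and 0.50 on the log2 scale, where Lpcat3 overlaps Emg1 and the mice of both strains overlapped in Glis3. Fitted on the 6 mice alone, the calls of Ndn, Il33 and Glis3 were lost. That of Il33 was also lost without C57BL/6J mouse 2, and that of Glis3 without BUB/BnJ mouse 3 or C57BL/6J mouse 1 or 3.

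**Figure D4:**
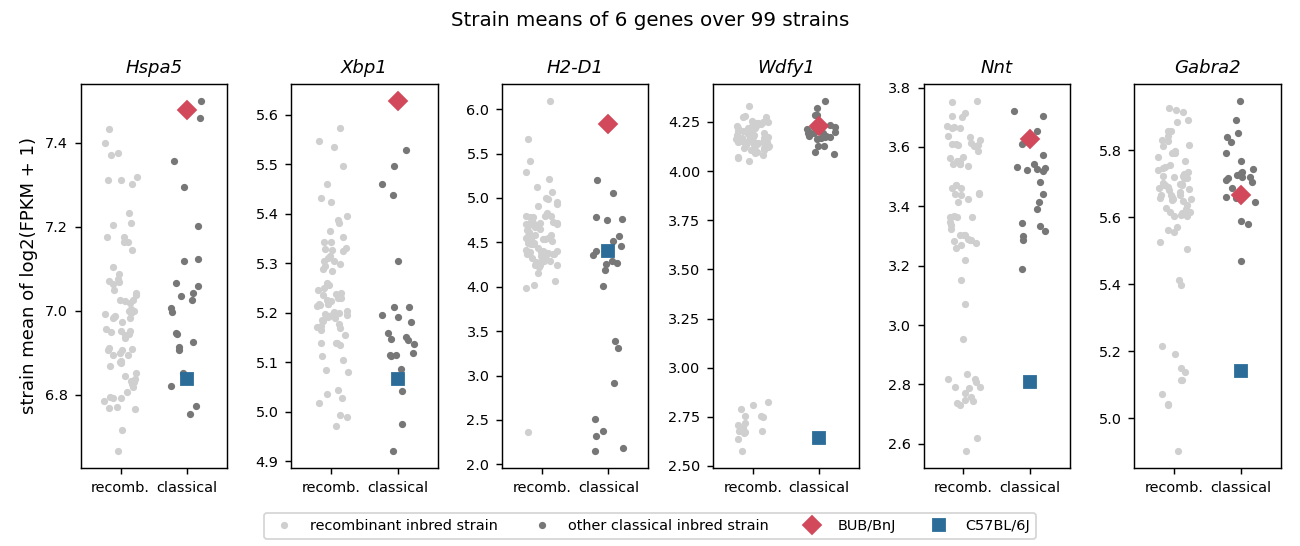
Strain means of log2(FPKM + 1) for 6 genes over 99 strains, with recombinant inbred strains (light grey), other classical inbred strains (dark grey), BUB/BnJ (diamond) and C57BL/6J (square). BUB/BnJ is near or at the top for Hspa5, Xbp1 and H2-D1, and C57BL/6J lies with a separate low group of recombinant strains for Wdfy1, Nnt and the locus of Gabra2.

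Of 16 genes of NADPH and glutathione metabolism, 3 rose, against 3.03% of all loci, with a median difference of 0.04. Beside Nnt these were Gsr, glutathione reductase, at 18.2, 22.5 and 22.2 against 12.4, 10.3 and 9.19 FPKM (0.92 ± 0.16, adjusted p = 3.57e-06, limma), and Sod2, the mitochondrial superoxide dismutase, at 42.8, 45.7 and 42.6 against 32.0, 35.6 and 35.3 FPKM. BUB/BnJ ranked 2 of the 99 strains in both. Of 18 genes of cholesterol synthesis, 1 rose (Nsdhl, 0.28) and 2 fell, against 6.33% of all loci called in either direction, with a median difference of 0.03. Insig1, which holds back the activation of the sterol regulators, stood at 18.8, 19.9 and 19.3 against 32.5, 30 and 30.4 FPKM (-0.65 ± 0.08, adjusted p = 6.23e-11, limma), and Sc5d fell by 0.51. Of 4 genes of the Y chromosome, 1 rose, against 3.03% of all loci. This was Uty, at 9.88, 11.4 and 10.3 against 4.80, 5.23 and 5.42 FPKM.

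Called loci were spread over the genome. On chromosome 17, 60 of 566 loci were called (10.6%), and on chromosome X 15 of 445 (3.37%). On chromosome 16, 15 of 392 loci were called (3.83%), 14 higher and 1 lower in BUB/BnJ, against 3.03% and 3.30% of all loci. In windows of 5 Mb, the largest number of calls was 13 of 83 loci (15.7%), on chromosome 17 from 30 to 35 Mb. It was followed by 10 of 61 loci (16.4%) on chromosome 17 from 20 to 25 Mb, 10 of 48 (20.8%) on the same chromosome from 35 to 40 Mb and 10 of 38 (26.3%) on chromosome 4 from 145 to 150 Mb, against 6.33% of all loci. The windows were chosen for their number of calls, so these shares are a description.

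The chromosome 17 windows from 30 to 35 Mb and from 35 to 40 Mb hold genes of the MHC and their neighbours. Vps52, a tethering factor of endosome to Golgi transport, stood at 40.9, 41.6 and 41.8 against 25.8, 22.9 and 28.7 FPKM (0.67 ± 0.12, adjusted p = 2.67e-06, limma). Ring1, a Polycomb ubiquitin ligase, stood at 11.9, 11.9 and 12.1 against 24.7, 21.6 and 21.8 FPKM, and Rab11b, a GTPase of recycling endosomes, at 42.7, 37.3 and 41.7 against 72.1, 66.2 and 71.8 FPKM. Each of these genes had its groups apart. Atp6v0c, a proton pore subunit of the vacuolar ATPase in the window from 20 to 25 Mb, stood at 47.7, 45.2 and 56.6 against 182, 171 and 169 FPKM (-1.79 ± 0.16, adjusted p = 3.97e-20, limma). Pkd1 stood at 14, 11.5 and 63.6 against 13.0, 12.6 and 13.7 FPKM, so that its call rests on BUB/BnJ mouse 3, without which it was lost, and its locus overlaps Tsc2. On chromosome 4 the F-box genes Fbxo6 and Fbxo44 moved in opposite directions, Fbxo44 at 48.3, 50.5 and 50.4 against 73.0, 80.9 and 72.9 FPKM and Fbxo6 at 17.1, 15.6 and 18.9 against 13.0, 11.8 and 10.6 FPKM.

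**Figure D5:**
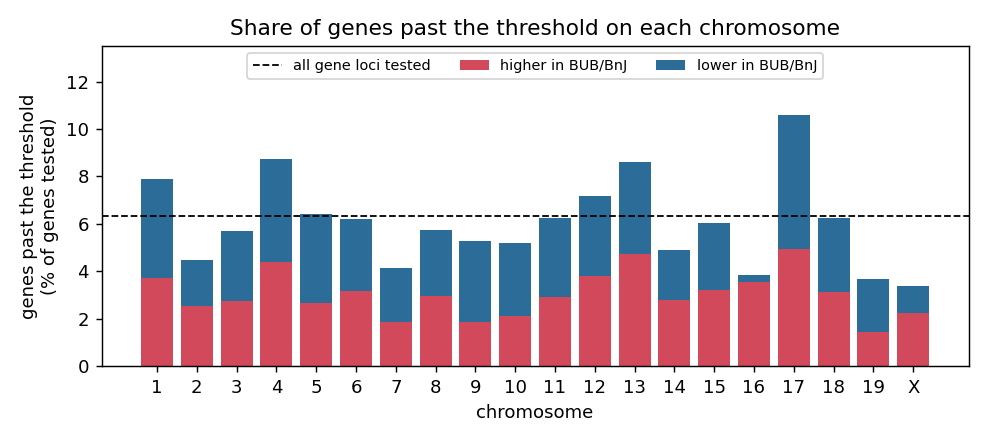
Percent of tested gene loci past the threshold on each chromosome, split into those higher and lower in BUB/BnJ, with a dashed line at 6.33% for all loci. Chromosome 17 is the highest at 10.6% and chromosome X the lowest at 3.37%, and chromosome Y, with 6 loci, is left out.

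Loci without a gene name were called in 10.7% of 1943 cases. Of these 1943 loci, 388 had an assembled transcript with no annotated gene. Of the 388, 72 were higher and 4 lower in BUB/BnJ (19.6% called), against 3.03% and 3.30% of all loci. These loci were assembled over the strains of the panel and kept by their level in mice of all strains. The part of this choice in the direction of the calls was not tested. The largest was XLOC_027629 at chr5:3021050-3236958, at 219, 185 and 237 FPKM in BUB/BnJ and 5.20, 0.712 and 0 FPKM in C57BL/6J (6.60 ± 0.41, adjusted p = 1.75e-34, limma). XLOC_000253 at chr1:60703920-60705714 stood at 63.0, 71.6 and 68.9 against 2.3, 1.65 and 1.40 FPKM, and XLOC_032325 at chr7:3181068-3181973 at 24.8, 20.7 and 22.6 against 0.367, 0.00118 and 0.213 FPKM. Both strains were thus well apart in these loci. XLOC_007074 at chr12:19098116-19098223, listed at 0 in C57BL/6J, was called at an adjusted p of 0.0486 (limma) and lost the call without any 1 of the 6 mice.

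Of 51024 transcripts, 738 passed the test (1.45%), 345 higher and 393 lower. Of these, 362 belong to loci that were not called. The split of a gene's reads among its transcripts is an estimate, so that these differences are less certain than those of genes. Hspa8, the constitutive heat shock protein Hsc70, had the same gene level in both strains within the spread, at 343, 351 and 391 against 427, 314 and 345 FPKM (0.01 ± 0.14, adjusted p = 0.991, limma). Its 2019-base known transcript stood at 95.3, 100 and 109 FPKM in BUB/BnJ and under 1 FPKM in the C57BL/6J mice (6.68 ± 0.44, adjusted p = 2.15e-30, limma), and a 2297-base isoform at 27.5, 21.5 and 21 against 106, 88.9 and 178 FPKM (-2.31 ± 0.32, adjusted p = 7.21e-09, limma). Another known transcript of 727 bases was also higher, at 158, 165 and 198 against 11.6 FPKM in C57BL/6J mouse 1 and under 1 in the other mice.

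Tuba1a, an alpha tubulin, also had no difference at the gene level (-0.02, adjusted p = 0.967, limma). Its 610-base transcript stood at 91.6, 139 and 134 FPKM in BUB/BnJ and under 1 FPKM in C57BL/6J, and its 916-base transcript at under 1 FPKM in BUB/BnJ and at 72.2, 102 and 114 FPKM in C57BL/6J. Both are annotated transcripts and were called. The copy Tuba1c, 97.1% identical to Tuba1a over 1356 bases, stood at 15.2, 13.3 and 15.3 against 0.564, 0.534 and 1.08 FPKM as a gene. Of the growth-associated protein gene Gap43, a 1302-base isoform stood under 1 FPKM in BUB/BnJ and at 45.7, 124 and 114 FPKM in C57BL/6J. Isoforms of the respiratory chain genes Atp5e (268 bases) and Ndufa3 (328 bases) were found in BUB/BnJ at 74.1 to 101 and 30.9 to 40.9 FPKM and under 1 FPKM in C57BL/6J, and a 1482-base isoform of Ssbp4 in C57BL/6J at 19.0 to 25.4 FPKM and at 0 in BUB/BnJ.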

How the data were processed

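Per the labels and the methods of the study, RNA of whole hypothalami was made into unstranded TruSeq libraries, and the submitters' processing notes name FastQC, STAR 2.3.1, Cufflinks 2.2.0, Cuffnorm 2.2.1 and mm10. The authors assembled transcripts over all mice and deposited FPKM values as scaled by Cuffnorm, for features above 0 in at least 100 and above 1 in at least 50 mice. Loci were named through the deposited assembly: 11497 carried 1 gene name, 639 carried 2 or more, 388 had transcripts and no name, and 1555 had no transcript. No per-gene depth was used, since FPKM gives no read counts, and no counting interval or floor is given. The 3 mice of a strain are separate animals, numbered in the order of their records, and 1 mouse with conflicting strain labels was left out.

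log2(FPKM + 1) was fitted with limma 3.58.1 (R 4.3.3) with 1 coefficient per strain over 281 mice, and the contrast BUB/BnJ minus C57BL/6J was adjusted by Benjamini-Hochberg over all 14079 loci or all 51024 transcripts, at a threshold of 0.05. Differences on this scale understate those of low genes. Values after ± are SE of log2 differences or, where stated, SD of FPKM. In simulated data for this contrast over 14079 loci, 200 loci were changed, drawn from those with a mean log2(FPKM + 1) of at least 1. The simulated noise was normally distributed, and all other loci were set equal between both strains. Of the genes changed by 1 on the log2 scale, 92% were recovered. Of those changed by 0.5, 56% were recovered, and 3.90% of all genes called there were false. These shares are for the simulated data only, and the share of false calls among the called loci of the mice was not tested. The genes named were the 15 highest and 15 lowest called differences, members of 36 gene lists, 8 genes per strain farthest from the next classical strain, 4 loci without a gene, 8 transcripts of genes not called and the windows of 5 Mb with most calls. Derl3 and the genes named under other observations were chosen after their values were seen. The strains, lists and tests were chosen with earlier results of these data known. Copies were sought with blastn 2.17.0 among GENCODE M21 transcripts (at least 95% identity over 200 bases). Promoters were those of RefSeq, GRCm38.p6. Another strain is on the side of whichever of BUB/BnJ and C57BL/6J has the nearer mean on the log2 scale, which says nothing of descent from it. Alternatives were pseudocounts of 0.1 and 0.01, a mean of at least 1 FPKM, quantile normalization, median centring, mapped reads and the share of uniquely mapped reads as covariates, the 6 mice alone, a variance trend, and leaving out 1 mouse.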

Additional observations from a re-analysis of the deposited data

How the results depend on the processing

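The number of called loci, 891, lay between 599 and 1064 in the analyses that kept all 6 mice and between 656 and 777 without 1 of them. The main set shared 492 loci with the fit on the 6 mice alone and between 802 and 891 with the other analyses that kept them. Fitted on the 6 mice alone, 278 loci in place of 426 were higher, and of the transcripts 248 in place of 738 were called, 154 higher and 94 lower. Without 1 mouse, the higher loci numbered 312 to 353, the lower loci 336 to 424, and the called transcripts 517 to 666, with 242 to 345 higher and 275 to 325 lower. Of the endoplasmic reticulum stress list, 5 to 10 members rose without 1 mouse, 5 of them without BUB/BnJ mouse 3 and 6 without C57BL/6J mouse 3, and 9 to 12 rose in the other analyses. Leaving out the BXD-12/TyJ mouse OB-547 raised the number of called loci to 1064. Of the 891 called loci, 379 were called in all 15 alternatives and 454 in all that kept the 6 mice. Of 88 named genes, loci and transcripts, 64 kept their call in all 15 alternatives and none changed direction, and the 78 lost calls comprised 59 without 1 mouse, 14 in the 6 mice alone and 5 elsewhere. In the lists of few members, the calls fell to 2 of 4 for the known strain differences without BUB/BnJ mouse 1, to 0 of 1 for the GABA-A subunits without that mouse and in the 6 mice alone, and to 1 of 3 for cholesterol synthesis in the 6 mice alone. The causes were not tested. No paired analysis was possible because the labels give the mice no replicate numbers that are shared between strains. The depth behind single values is unknown, since FPKM holds no counts, and differences of 0.5 on the log2 scale were recovered less often than those of 1 in simulated data.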

Other observations

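Further genes of protein quality control in the endoplasmic reticulum, which were looked up after their values were seen, were also called. Eif2ak3, the stress sensor PERK, stood at 10, 9.08 and 8.95 FPKM in BUB/BnJ and at 6.75, 6.52 and 6.76 FPKM in C57BL/6J (0.43 ± 0.12, adjusted p = 0.01, limma), and its call was lost without BUB/BnJ mouse 1. Magt1, a subunit of the enzyme complex that adds sugar chains to nascent proteins, had a difference of 0.49 (adjusted p = 0.00975, limma), and Ficd, which modifies BiP, one of 0.28 (adjusted p = 0.0330, limma). Their calls were lost in 3 and 6 of the 15 alternatives. Sil1, the nucleotide exchange factor of BiP, went the other way, at 11.5, 9.73 and 12 against 18.3, 14.7 and 18.3 FPKM (-0.58 ± 0.15, adjusted p = 0.00567, limma). The mice of both strains did not overlap in any of these 4 genes. They were picked from the called loci and are no independent sign of a direction.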
